A study of Mus musculus with 4 samples.

Results

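The genes for the proteins of the cytosolic ribosome were followed in libraries labelled as sorted gonadotropes, the hormone-secreting pituitary cells that govern the gonads. The design text of the series speaks of pituitaries. Members were the protein-coding rows of the deposited count table whose gene symbol has the form of a ribosomal protein name (Rpl or Rps with a number, Rplp0 to Rplp2, Rpsa, and their lettered and paralogue forms). They also needed 10 or more counts in at least 2 of the 4 libraries. Of 84 such rows 81 met that minimum, out of 54532 rows in all, and they comprised 49 large subunit and 32 small subunit genes. The 3 rows that did not meet it were Rpl10l and Rpl39l, with no count in any library, and Rpl3l, with counts in control replicate 1 alone. Poly(A) RNA came from male mice of mixed strain, aged 10 to 12 weeks, either controls (2 libraries) or mice whose Gata2 was knocked out conditionally (cKO, 2 libraries), and the title of the series describes the knockout as specific to gonadotropes. Gata2 encodes a transcription factor of the GATA family. The sources used here do not give the Cre line, the alleles of the controls or how many animals each library holds, and the spread behind each p-value is that of these libraries, which may be of technical origin.

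Ribosomes of the cytosol consist of a large and a small subunit, each a scaffold of ribosomal RNA with a set of proteins that are mostly present in a single copy. The small subunit holds the messenger RNA and reads its codons, and the large subunit joins the amino acids and releases the chain through an exit tunnel. Most of these proteins are made from messenger RNAs that begin with a tract of pyrimidines (C or T), the 5' TOP tract, through which mTOR signalling and the RNA-binding protein LARP1 adjust their translation. Their genes have many processed pseudogenes in mammalian genomes, so short reads from them often match more than 1 place.

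The sequence at the transcript start was not used in the choice of members. RefSeq windows (GRCm38.p6, 250 bases before to 50 after an annotated start) were matched by symbol for 61 of the 81 members, which had 72 windows. A run of at least 8 pyrimidines within 20 bases either side of the start was present in 43.1% of the members' windows and in 16.0% of the 32851 windows of all genes. The annotated start itself lay in a run of at least 5 pyrimidines in 27.8% of the members' windows and in 10.1% of all. The word CCGGAA, the core bound by ETS factors, was found on either strand in 48.6% of the members' windows against 14.9% of all. GATA words (the word AGATAA or the word AGATAG or the word TGATAA or the word TGATAG, either strand) were found in 19.4% against 29.8%, and TATAAA in 9.72% against 13.6%. These are matches of letters around annotated starts, which may lie some bases away from the starts used in these cells. Windows of 30 bases, from 20 bases before the start up to the tenth transcribed base, are shown for 6 members whose annotated start lies inside a pyrimidine run and for 4 whose start does not, all from the genes described below. The choice of printed windows does not follow the shares given above. Capitals mark the longest pyrimidine run inside each window, which in Rps15a ends upstream of the start.
Rpl28 (chr7:4792945-4792974, plus strand): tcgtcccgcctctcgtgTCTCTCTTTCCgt
Rpl38 (chr11:114668560-114668589, plus strand): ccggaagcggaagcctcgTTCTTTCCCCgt
Rplp2 (chr7:141447631-141447660, plus strand): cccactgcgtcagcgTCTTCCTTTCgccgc
Rps15a (chr7:118116138-118116167, minus strand): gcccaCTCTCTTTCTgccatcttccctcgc
Rps27 (chr3:90213639-90213668, minus strand): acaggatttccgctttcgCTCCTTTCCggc
Rps10 (chr17:27635235-27635264, minus strand): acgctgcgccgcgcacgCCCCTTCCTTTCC
Rpl12 (chr2:32961692-32961721, plus strand): gcgtgggcggagcaggatccgTCTTTTCgg
Rps12 (chr10:23787200-23787229, minus strand): TTaaataccgtcatgcggccaccgccggcc
Rpl22l1 (chr3:28805488-28805517, plus strand): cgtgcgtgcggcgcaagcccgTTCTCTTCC
Rpl41 (chr10:128549159-128549188, minus strand): gacgacacacgggccggCTCggaagtgacg
In Rpl12 and Rpl22l1 the capital run began 1 base after the annotated start. In the printed windows of Rps12 and Rpl41 the longest run held 2 and 3 bases, although in Rps12 a run of 11 lay at or past the downstream end of the printed bases.

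Total estimated counts were 10646909 to 21135301 per library. The targeted gene, Gata2, stood at 537 and 526 CPM (counts relative to the library total, scaled by TMM factors) in control mice and at 221 and 214 after knockout. On the log2 scale the change was -1.29 (SE 0.14, edgeR adjusted p = 0.0473), the direction the labels give. Over the alternatives its adjusted p ran from 3.38e-35 (DESeq2) to 0.0643 (replicate block), and it was 0.0620 when 1 CPM was required in 2 libraries. The 6 gonadotrope markers on the list were present in every library. They summed to 15648 and 13603 CPM of the unscaled total in control mice and to 6744 and 7754 after knockout. In 5 of them both cKO libraries were below both controls, against 19.3% of all genes tested. The other, Nr5a1, overlapped between the groups, with 277 and 397 CPM in control mice against 275 and 372. The 5 lactotrope markers summed to 375 and 621 against 1336 and 1315, with Angpt1 at 0 in 2 libraries. The 3 somatotrope markers summed to 1181 and 2371 against 2168 and 386, and the 5 of corticotropes and melanotropes to 7775 and 10100 against 6342 and 7274. Hormone transcripts made up most of each of these sums, so the sums do not count cells. All of these sums are relative to the unscaled library total. Mitochondrially encoded transcripts took 5.42% and 6.15% of counts in control mice and 7.76% and 8.98% after knockout. The 2 nuclear RNAs looked at, Malat1 and Neat1, summed to 1084 and 1269 CPM of the unscaled total in control mice and to 1899 and 1980 after knockout. Control replicate 1 was the shallowest library and had the fewest rows with a count (15425, against 17624 to 21824 in the others). The part of these differences in the values below was not tested.

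Ribosomal protein transcripts were abundant and spread over a narrow range, apart from a tail of low genes. Of the 81 members 68 had at least 1000 counts in every library, and 70 were among the 1000 highest of all genes tested when levels were taken as CPM per kilobase of the principal transcript. Between the lower and the upper quartile of members the level per kilobase went from 123 to 279. These levels depend on the transcript length taken. Rps15a, with 86.0 and 89.9 CPM in control mice and a principal transcript of 5179 bases, stood at only 19.2 per kilobase. The highest levels per kilobase were those of Rpl41 (555), which codes for a very short basic peptide of the large subunit, Rps27 (496), Rplp1 (483), an acidic protein of the stalk, and Rps15 (436), a protein of the small subunit head. In bulk RNA, fewer cells of a type and less RNA per cell cannot be told apart.

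The 4 lowest members were genes that share exon bases with other annotated genes, or paralogues. Rps10 stood at 3.07 CPM per kilobase, Rpl36al at 7.10, Rpl24 at 7.80 and Rpl7l1 at 15.7. Rps10 had 30.0, 35.5, 57.5 and 47.5 counts in control replicates 1 and 2 and cKO replicates 1 and 2, although it codes for an obligatory protein of the small subunit. In GENCODE M21 53.6% of the bases of its principal transcript also lie in exons of the readthrough gene RPS10-NUDT3 on the same strand, which had 0 counts in every library. Its processed pseudogene Rps10-ps2 had 650, 825, 439 and 629 counts in the same order and Rps10-ps1 had 242, 232, 124 and 136. Over all libraries 95.1% of the counts of Rps10 and its named pseudogenes lay in the pseudogenes. Rpl24, with 78.5, 59.0, 94.0 and 92.0 counts, shares 71.5% of its bases with Gm28037, and Rpl13a shares 59.3% with Gm45713 and Mir5121. Rpl36al shares 26.0% with Gm49383. These partners also had 0 counts in every library. All 4 members that share at least 25% of their bases on the same strand were among the 10 lowest. In all, 19 members share bases with another gene on either strand. Examples with a partner on the opposite strand are Rpl30 (57.45%), Rpl5 (46.6%), Rpl22l1 (28.8%) and Rpl28 (16.6%, with Ube2s). The sources used here do not state whether counting used the strand. Levels of these 19 genes are therefore uncertain, and the plot of levels by rank marks the 4 with the large same-strand overlap.

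**Figure D1:**
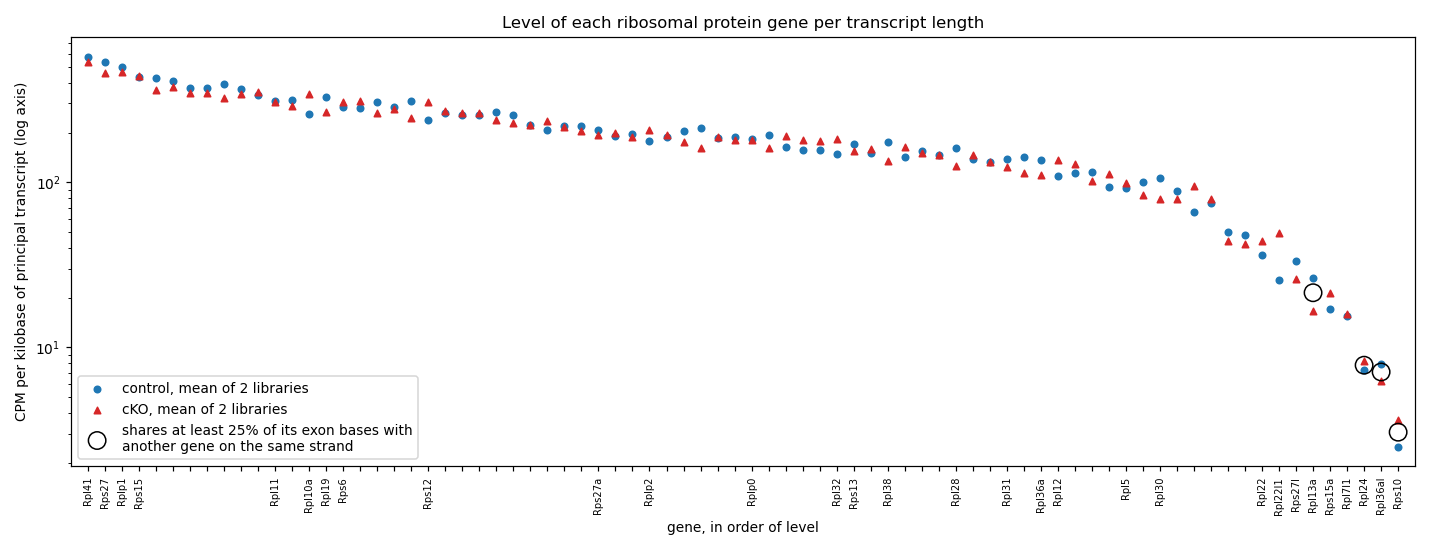
Level of 78 of the 81 ribosomal protein genes, as CPM per kilobase of the principal transcript on a log axis, in order of the mean over groups, with the mean of 2 control libraries (circles) and 2 cKO libraries (triangles). Open rings mark the 4 genes (Rpl13a, Rpl24, Rpl36al, Rps10) that share at least 25% of their bases with another gene on the same strand, all of them at the low end.

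Counts of the family were often not whole numbers. A count that was not whole was found in at least 1 library for 75 of the 81 members, against 19.98% of all rows with a count. The table also held 300 rows of pseudogenes named after these genes, and 60 members had at least 1 of them. For those 60 the median share of gene plus pseudogene counts that lay in the pseudogenes was 6.57%. After Rps10 the highest shares were those of Rpl31 (30.4%), Rpl36a (28.8%) and Rps6 (27.9%).

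As a whole the family took a similar share of each library. The members held 1.49% of all counts in control replicate 1 and 1.36% in control replicate 2, then 1.36% and 1.33% in cKO replicates 1 and 2. Control replicate 1 was highest, and the other 3 libraries were close together. The control mean was 1.43% ± 0.096 and the cKO mean 1.35% ± 0.021 (SD, n = 2 per group), and the difference was smaller than the SD of the controls. All counts here include the mitochondrially encoded transcripts, whose share was higher after knockout, as given above. Their part in the difference was not tested. Large subunit genes made up 61.7% and 61.3% of the members' counts in control mice and 62.1% and 61.7% after knockout, so the balance between subunits was the same within 1 percentage point. The median large subunit gene had 159 and 154 CPM in control mice against 167 and 161 in the cKO libraries, and the median small subunit gene 168, 152, 159 and 163. These levels are not scaled by length. The median large subunit gene was not the same gene in each library, so these medians do not follow a single gene.

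None of the 81 ribosomal protein genes passed the test in cKO against control. The test was edgeR's quasi-likelihood F-test on the whole table of 17349 genes, and a gene was called at an adjusted p (Benjamini-Hochberg) under 0.05. It called 10 genes in all, 0.0576% of those tested. The smallest adjusted p of a member was 0.683. At an unadjusted p under 0.05 there was 1 member, whereas 7.04% of all genes passed at that level. DESeq2 called 0 members (8 at an unadjusted p under 0.05, against 15.6% of all genes) where it called 5.44% of all genes. limma-voom called 0 members (2 at an unadjusted p under 0.05, against 8.67% of all genes) where it called 1.48% of all genes.

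Fold changes of the members were small in both directions. The large subunit genes had a median log2 fold change of -0.03, with 22 of 49 higher in cKO, and the small subunit genes one of -0.08, with 12 of 32 higher. The median over all genes tested was 0.03, with 52.4% of them higher. The spread of fold changes was narrower in the family. Its quartiles were -0.19 and 0.11, against -0.40 and 0.47 for all genes, which include many that are far less abundant. A fold change beyond 1.5 in either direction was found in 2 members, Rpl13a and Rpl22l1, and in 39.9% of all genes tested. No member had a fold change beyond 2, against 22.9% of all genes tested. For 73 members the 95% interval of the fold change left out a change by a factor of 2 in either direction, and for 38 it left out a factor of 1.5. For the other members changes of those sizes lay inside the interval. Both medians were below 0 under every scaling run. Without control replicate 1 the median of the large subunit genes was 0.04 and that of the small subunit genes -0.01, with 42 of 81 members higher in cKO instead of 34.

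**Figure D2:**
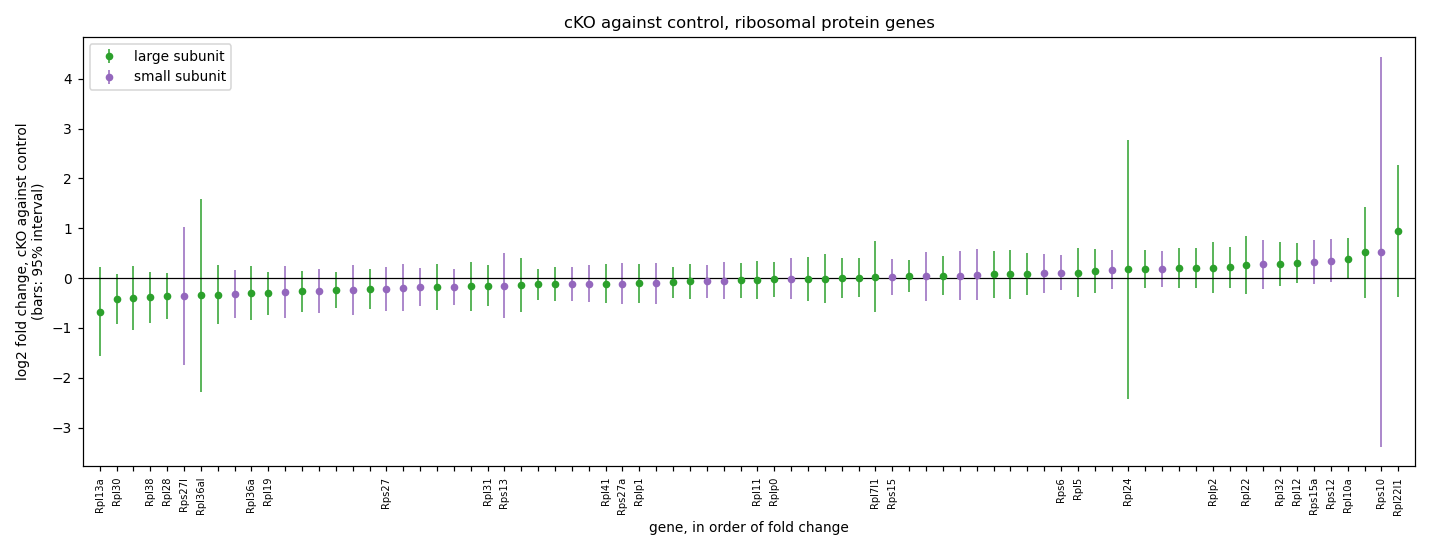
Log2 fold change of 78 of the 81 ribosomal protein genes, cKO against control, with its 95% interval, in order of fold change and coloured by subunit. The points run from -0.67 (Rpl13a) to 0.95 (Rpl22l1), and each interval drawn includes 0. Genes described in the text are labelled.

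Library values overlapped between the groups for 44 of the 81 members (54.3%), a smaller share than the 61.0% of all genes tested. For 14 members (17.3%) both cKO libraries were above both controls, against 19.7% of all genes tested, and for 23 members (28.4%) both were below, against 19.3%. The other 44 members overlapped, and groups that did not overlap in either direction made up 39.0% of all genes. The larger of the differences within a group exceeded the fold change in 58 of 81 members (71.6%), and in 72.7% of all genes. The median absolute log2 difference was 0.21 for the control pair and 0.14 for the cKO pair, and the median absolute log2 fold change was 0.17. Differences within a group are between single libraries and fold changes are between groups of 2, so these measures are unlike. The order of the members by CPM was much the same in all libraries. Spearman's rho over the 81 members was 0.916 for the control pair, 0.945 for the cKO pair and 0.953 and 0.963 between control replicate 2 and the cKO libraries, and it was lowest between control replicate 1 and the cKO libraries (0.867 and 0.883). These points share transcript length and annotation, so a high value is given here as a description.

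**Figure D3:**
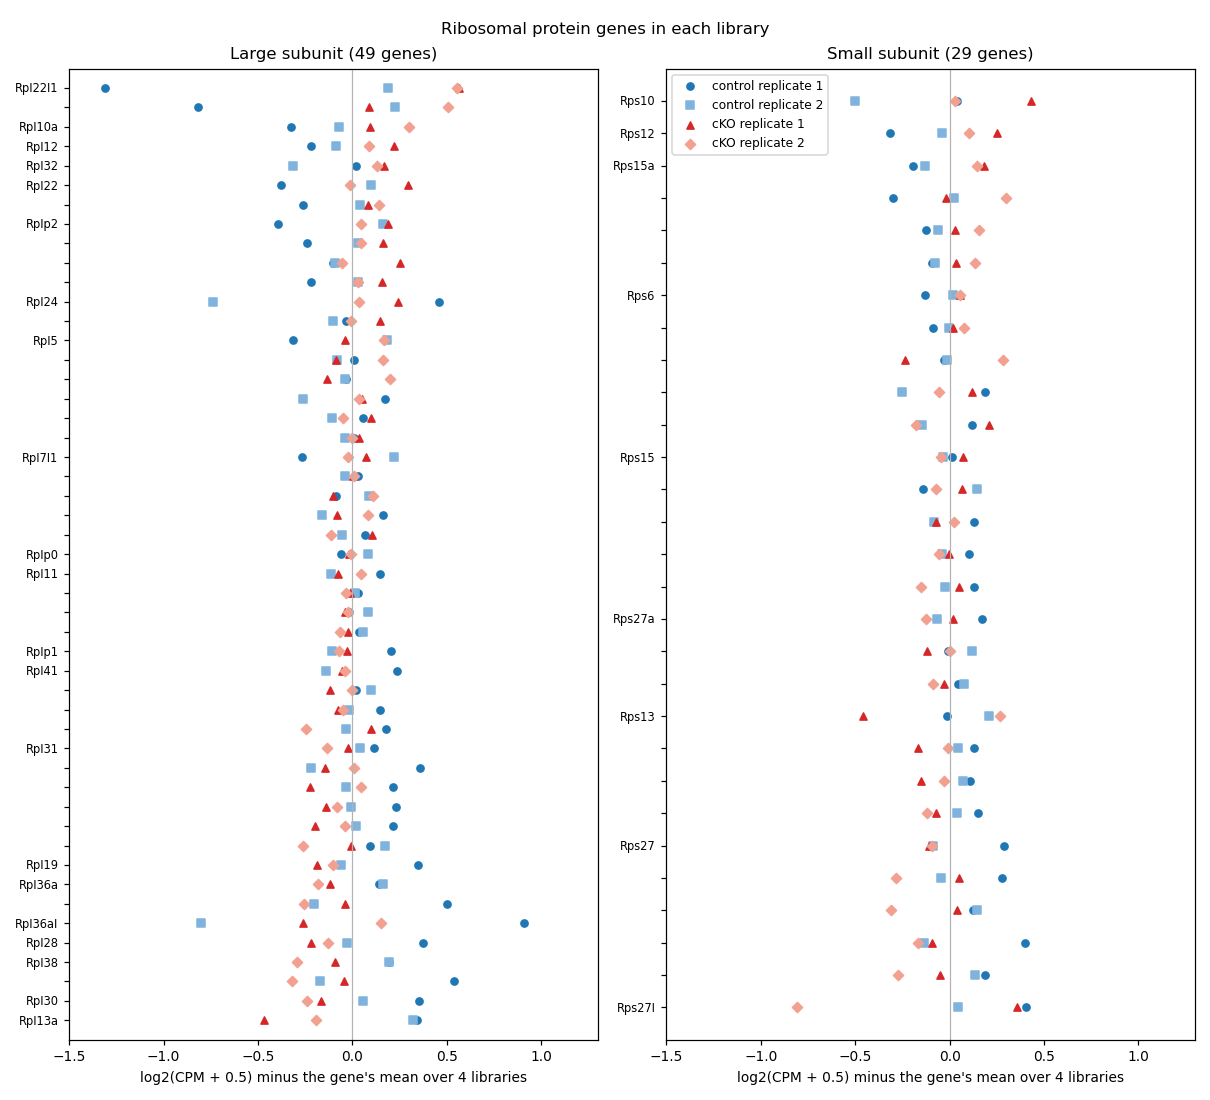
78 of the 81 ribosomal protein genes in each of the 4 libraries, as log2(CPM + 0.5) minus the gene's mean over the libraries, with large subunit genes on the left and small subunit genes on the right in order of fold change. Most points lie close to the line at 0, and control replicate 1 stands far to the left in Rpl22l1 (7.09 CPM) and far to the right in Rpl36al (15.8 CPM).

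Members with low p-values among those lower in cKO included Rpl30, Rpl28, Rpl38, Rpl13a and Rpl19. Rpl30 (ENSMUSG00000058600.13, mm10 chromosome 15, 34440505 to 34443640), for a protein of the large subunit, had 103 and 83.7 CPM in control mice against 71.6 and 68.0 after knockout. Control replicate 1 was the highest, and the groups did not overlap. The difference was -0.42 as log2 fold change (SE 0.22, adjusted p = 0.767). Rpl28, whose window is shown above, had 204 and 154 CPM against 135 and 144. In Rpl28, and in Rpl19 with 282 and 213 against 195 and 206 CPM, the controls differed from each other by more than the group means did.

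Rpl38, a small protein of the large subunit known for its part in translating Hox messenger RNAs in the embryo, had 80.2 and 80.4 CPM against 65.8 and 57.2, or -0.39 as log2 fold change (SE 0.22, adjusted p = 0.814). Its controls were close together and its cKO libraries both lower. Rpl13a, which has a further known role in silencing inflammatory transcripts, had 27.7 and 27.4 CPM against 15.6 and 19.0. The log2 fold change of -0.67 (SE 0.38, adjusted p = 0.819) was the lowest of all members, and 59.3% of its bases are shared with other annotated genes, as given above.

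The members with the smallest p among those higher in cKO were Rpl10a, Rps12, Rpl12, Rps15a, Rpl22l1 and Rpl32. Rpl10a (ENSMUSG00000037805.15, chromosome 17, 28328471 to 28331033), a protein of the large subunit stalk by which tRNAs leave, had 173 and 206 CPM in control mice against 231 and 266 after knockout. The groups did not overlap, but the controls differed from each other by more than control replicate 2 did from cKO replicate 1. Its log2 fold change was 0.39 (SE 0.17, 95% interval -0.02 to 0.80, adjusted p = 0.706). Rps12, a protein of the small subunit beak and a host of small nucleolar RNAs in its introns, had 126 and 153 CPM against 187 and 169 (log2 fold change 0.35, SE 0.18, adjusted p = 0.767). Rpl12, part of the base of the stalk, had 130 and 142 CPM against 176 and 161, and Rps15a 86.0 and 89.9 against 112 and 109. In Rps15a the libraries of each group lay close together, and the log2 fold change was 0.33 (SE 0.19, adjusted p = 0.819). Rpl32 had 150 and 119 CPM against 167 and 163.

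Groups of members defined by their place in the ribosome gave no call either. The acidic stalk, which recruits the elongation factors, consists of Rplp0 with Rplp1 and Rplp2. Rplp0 had 236 and 261 CPM in control mice against 243 and 245 after knockout (log2 fold change -0.03, SE 0.15). Rplp1 had 277 and 223 against 235 and 229 (-0.10, SE 0.17), and Rplp2 139 and 205 against 208 and 189 (0.21, SE 0.22). All 3 overlapped between the groups. Rpl5 and Rpl11 form a particle with 5S ribosomal RNA and, when ribosome assembly fails, bind the p53 regulator MDM2. Rpl5 had 155 and 220 CPM against 188 and 217 (0.11, SE 0.21), and Rpl11 283 and 237 against 243 and 264 (-0.04, SE 0.16). Of the 9 proteins on the list for the exit tunnel 3 were higher and 6 lower, with a median of -0.14. Of the 11 on the list for the channel of the messenger RNA, which runs through the small subunit, 3 were higher and 8 lower, with a median of -0.06. The 15 genes on a list of those mutated in Diamond-Blackfan anaemia, a failure of red cell formation, had 5 higher and 10 lower and a median of -0.05. In these lists 0 members passed edgeR's test, which called 0.0576% of all genes, so lists of this size would mostly hold no call. At an unadjusted p under 0.05 there were 0 members, against 7.04% of all genes.

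The highest members per length and the ubiquitin fusion Rps27a did not pass the test either. Rpl41 had 378 and 292 CPM against 309 and 312 (log2 fold change -0.11, SE 0.17), Rps15 220 and 213 against 229 and 211 (0.03, SE 0.15), and Rps27 208 and 160 against 157 and 160 (-0.21, SE 0.19). In Rpl41 and Rps27 control replicate 1 was the highest and the other 3 libraries were alike. Rps27a, which is made as a fusion with ubiquitin, had 178 and 150 CPM against 159 and 144 (-0.11, SE 0.18). Ribosomal proteins whose symbols lie outside the naming rule were looked at as well. Fau, a fusion of a ubiquitin-like protein with a small subunit protein, had 120 and 122 CPM against 104 and 116 (-0.14, SE 0.18), and Rack1, a signalling scaffold on the small subunit head, had 247 and 268 against 296 and 317 (0.25, SE 0.15, adjusted p = 0.837). In Rack1 both cKO libraries were above both controls, and in Fau both were below.

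Paralogues of ribosomal proteins, which can take the place of the usual protein or have other roles, varied between libraries. Rpl22l1 (ENSMUSG00000039221.10, chromosome 3, 28805436 to 28807424) stood at 7.09 and 20.98 CPM in control mice and at 27.3 and 27.1 after knockout. Control replicate 1 was far below the other 3 libraries, and the groups did not overlap. The log2 fold change of 0.95 was the highest of all members (SE 0.57, 95% interval -0.38 to 2.28, adjusted p = 0.849), and it was 0.37 without control replicate 1. Rpl22, which is known to restrain Rpl22l1, had 62.5 and 87.2 CPM against 99.7 and 80.5 (0.27, SE 0.25). Per transcript length Rpl22l1 stood at 42.2% and 89.4% of Rpl22 in the controls and at 102% and 125% in the cKO libraries.

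Rps27l, a p53-responsive relative of Rps27, had 18.7 and 14.5 CPM against 18.1 and 7.81 (-0.36, SE 0.59), with cKO replicate 2 the lowest. Rpl36al had 15.8 and 4.49 against 6.75 and 9.16 (-0.35, SE 0.82), and Rpl7l1 33.6 and 47.3 against 42.6 and 39.8 (0.03, SE 0.30). Per transcript length, these 3 paralogues stood at 2.57% to 9.13% of Rps27, Rpl36a and Rpl7 over all libraries. Rps4l, annotated as a transcribed pseudogene and so not a member, had 39.2 and 23.3 CPM against 40.1 and 37.3 (0.31, SE 0.35), with control replicate 2 the lowest.

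**Figure D4:**
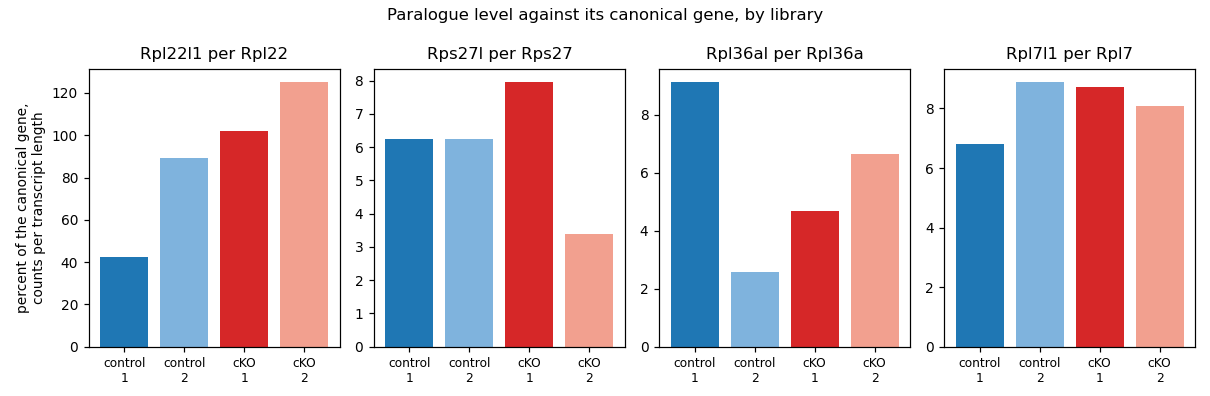
Level of 4 paralogues as a percentage of their canonical gene, both as counts per length of the principal transcript, in each library (bars, 1 per library, each panel with its own axis from 0). Rpl22l1 runs from 42.2% in control replicate 1 to 125% in cKO replicate 2, while the other 3 stay below 10%.

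Rps13, a protein of the small subunit chosen here after its values were seen, differed more between the cKO libraries than between the groups. It had 68.4 CPM in cKO replicate 1 and 114 in cKO replicate 2, against 93.1 and 109 in the controls. The cKO libraries were thus the lowest and the highest of the 4, and the log2 fold change was -0.15 (SE 0.28).

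Genes that work with ribosomal proteins were read from the same fit, by lists of general knowledge. That fit called 0.0576% of all genes, so lists of this size would mostly hold no call. Of 17 translation factors and other genes whose messenger RNAs are known to begin with a 5' TOP tract, 0 passed, 9 were higher and 8 lower, and the median was 0.02. Naca, of the complex that shields new chains at the ribosome exit, had 108 and 122 CPM in control mice against 138 and 174 after knockout (log2 fold change 0.44, SE 0.20, adjusted p = 0.717). Hnrnpa1, for a nuclear RNA-binding protein, had 176 and 293 against 363 and 319 (0.54, SE 0.25, adjusted p = 0.725), or 0.21 without control replicate 1, and Eif4b, an initiation factor, 348 and 362 against 266 and 319 (-0.28, SE 0.16, adjusted p = 0.807). Of 7 tested host genes of small nucleolar RNAs 0 passed. Snhg1 had 11.6 and 28.1 CPM against 48.9 and 44.9 (1.23, SE 0.45, adjusted p = 0.654), with the groups apart. Its log2 fold change was 0.73 without control replicate 1 and 2.01 without control replicate 2. Gas5 had 143 and 109 against 135 and 148, and Snhg6 11.5 and 4.64 against 11.1 and 10.3.

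Of 35 genes for ribosome assembly in the nucleolus 0 passed, where 0.0576% of all genes did, with 23 higher, 12 lower and a median of 0.08. At an unadjusted p under 0.05 there were 3, a share near the 7.04% of all genes. Both cKO libraries were above both controls in 8 genes of the list and below in 8, where 39.0% of all genes did not overlap either way. The 3 genes with the smallest p are given next. Nop56, of the particle that methylates ribosomal RNA, had 57.2 and 65.5 CPM in control mice against 108 and 110 after knockout (log2 fold change 0.83, SE 0.21, adjusted p = 0.492). Gnl3, for nucleostemin, had 47.2 and 45.1 against 77.8 and 82.1 (0.79, SE 0.23, adjusted p = 0.567). Nop16 had 29.6 and 16.2 against 4.95 and 8.82 (-1.73, SE 0.59, adjusted p = 0.645). DESeq2, which called 5.44% of all genes, called these 3. Of 17 genes of mTOR signalling, LARP1 and MYC 0 passed, with 11 higher and a median of 0.17, and 4 had an unadjusted p under 0.05, where 7.04% of all genes did. Myc, a transcription factor that drives ribosome production, had 24.6 and 45.3 CPM against 65.3 and 84.4 (1.09, SE 0.35, adjusted p = 0.629). Its relative Mycn had 23.1 and 32.9 against 61.1 and 54.6 (1.04, SE 0.30, adjusted p = 0.577), and its partner Max 42.3 and 66.5 against 102 and 88.9 (0.81, SE 0.28, adjusted p = 0.645). Both cKO libraries were above both controls in 6 genes of the list and below in 3, against 19.7% and 19.3% of all genes. Myc, Mycn and Max, named for having the smallest p of the list, were among the 6. DESeq2 called them, as it did 5.44% of all genes. Without control replicate 1 the log2 fold changes of Myc and Max were 0.72 and 0.51. edgeR called Myc without a filter on low counts (adjusted p = 0.0212, with 253 genes called in all), and over its alternatives the adjusted p of Myc reached 0.958.

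Protein genes of the mitochondrial ribosome, which is built from a separate set, and of the proteasome were set beside the cytosolic family. Of 77 tested genes of the mitochondrial ribosome 0 passed, where 0.0576% of all genes did. On this list 22 were higher and 55 lower, and the median log2 fold change was -0.28. In 22 of them both cKO libraries were below both controls and in 8 above, against 19.3% and 19.7% of all genes tested. Mrpl54 had 42.0 and 24.1 CPM against 12.0 and 16.3 (-1.22, SE 0.44, adjusted p = 0.654), or -0.78 without control replicate 1, and Mrps33 27.3 and 18.4 against 10.9 and 7.98 (-1.27, SE 0.50, adjusted p = 0.692). Of 38 tested proteasome subunit genes 0 passed, 31 were higher and 7 lower, and the median was 0.13. In 12 of them both cKO libraries were above both controls and in 1 below, against 19.7% and 19.3% of all genes tested. Only 1 proteasome gene had an unadjusted p under 0.05, against 7.04% of all genes. Psmc2 and Psmd11 are named for having the smallest p of the list. Psmc2 had 81.8 and 78.4 CPM against 118 and 122 (0.58, SE 0.19, adjusted p = 0.629, called by DESeq2), and Psmd11 71.3 and 104 against 130 and 119 (0.50, SE 0.24, adjusted p = 0.729), or 0.25 without control replicate 1. The difference between these lists and the cytosolic family was not tested.

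**Figure D5:**
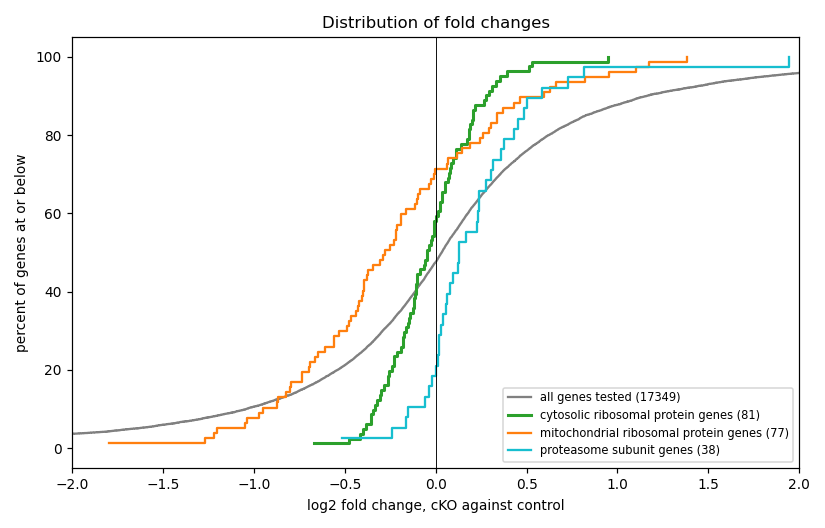
Cumulative distribution of log2 fold changes, cKO against control, for the cytosolic ribosomal protein genes, the mitochondrial ribosomal protein genes, the proteasome subunit genes and all genes tested (horizontal axis cut at -2 and 2). The cytosolic curve is steep around its median near 0, and the mitochondrial curve lies to its left over most of its course (median -0.28) and the proteasome curve to its right (median 0.13).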

How the data were processed

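Poly(A) RNA of sorted gonadotropes was sequenced in 4 libraries, 2 per group, grouped by their titles. The series' design text speaks of pituitaries. The authors deposited estimated counts per gene, unscaled and partly fractional. STAR 2.5.1b, featureCounts 1.5.0-p1 and mm10 are named by the submitters' processing notes. Annotation release, strand setting and the treatment of multiple matches were not stated there. Symbols, positions and principal (APPRIS) transcript lengths came from GENCODE M21, where 54495 of 54532 identifiers matched without version. Where several transcripts of a gene had the same APPRIS rank, the longest was taken.

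Counts were rounded, filtered with filterByExpr (minimum count 10, minimum total 15, by group), which left 17349 genes with all 81 members, and scaled by TMM. edgeR 4.0.16 (R 4.3.3) fitted group as the only term by quasi-likelihood, and p-values were adjusted over all genes. SE is the absolute log2 fold change divided by the square root of F. The 95% intervals rest on 2 libraries per group. Alternatives were other scalings and filters, DESeq2 1.42.0, limma-voom (limma 3.58.1), a replicate block, counts summed with named pseudogenes, no mitochondrial genes, and each library left out. Unrounded counts, and the family's share with a library left out, were added after seeing the data.

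The members and lists were chosen with earlier results of these data known. Named were Gata2, up to 6 members per direction with the smallest p, the 4 highest and 4 lowest per length, the stalk, 5S particle and paralogue genes, Rps27a, Fau, Rack1, and up to 3 genes with the smallest p from each other list. Any others (Rpl22, Rpl31, Rpl36a, Rps6, Rps13) were chosen after their values were seen or for comparison. Single values of some genes that the rule would name are not reported here, and those genes were left out of the plots by gene but not of counts, medians and tests.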

Additional observations from a re-analysis of the deposited data

How the results depend on the processing

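No ribosomal protein gene was called under any alternative run, and the smallest adjusted p of a member lay between 0.0684 (without control replicate 2) and 0.99999 (without cKO replicate 1). Genes called over the whole table numbered 10, but 253 without a filter and 3 with at least 1 CPM required in 2 libraries. DESeq2 called 943, limma-voom 256 and edgeR 66 to 681 with a library left out, and the cause was not tested. A fit without a library leaves 1 library in its group, which is assumed to vary like the other group. The fit without control replicate 2 called the 681 genes, 537 of them higher, and the median over all its genes was 0.25. With a library left out the large subunit median ranged from -0.076 to 0.039 and the small subunit median from -0.11 to -0.01. The replicate numbers share only a number, with a correlation of -0.011 between deviations over 17349 genes. Fitted with the replicate block, 7 genes were called, no member was, and the medians were -0.02 and -0.08.

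Of 720 comparisons of the 45 named genes with an alternative, 680 kept direction and side of the threshold, 26 turned direction, 12 passed the threshold and 2 (Gata2, given above) lost it. Upper-quartile scaling turned Rps15 (-0.0085) and Rpl7l1 (-0.0020), as did scaling by library size (-0.013 and -0.0084). Summing with pseudogenes turned Rps10 (-0.67), and limma-voom turned Rpl36al (0.24), Rpl11 (0.0025) and Rpl7l1 (-0.027). With a library left out the log2 fold change ranged from -0.25 to 0.050 for Rplp1, -0.22 to 0.0097 for Rps27a, -0.051 to 0.52 for Rplp2, -0.10 to 0.050 for Rplp0, -0.12 to 0.39 for Rpl5 and -0.16 to 0.092 for Rpl11. It ranged from -1.09 to 0.12 for Rps27l, -0.99 to 0.82 for Rpl36al, -0.21 to 0.30 for Rpl7l1, -0.016 to 0.73 for Rps4l and -0.34 to 0.98 for Rpl24. For Rps15 it was -0.038 to 0.074, for Rpl41 -0.28 to 0.082, for Gas5 -0.021 to 0.36 and for Snhg6 -0.091 to 1.20. Genes under about 100 counts in a library, such as Rps10 and Rpl24, had the widest intervals, so that only very large changes were detectable there.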
